A study of Homo sapiens with 12 samples.

Results

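Transcripts of 29 genes for the tricarboxylic acid (TCA) cycle, for glutamine and glutamate handling and for the malate-aspartate shuttle were followed in proliferating and senescent human fibroblasts. The genes were chosen by name, and each was matched to 1 row of a count table of 57500 genes. All 29 were found, and 28 of them were among the 16251 genes that passed a filter on low counts. The member that did not pass was OGDHL, a relative of the oxoglutarate dehydrogenase subunit OGDH, which had between 0.0371 and 0.331 CPM (counts per 1e6 counts of the scaled library) in the 12 libraries. The lowest library value of the other 28 members was 5.62 CPM (D2HGDH), so none of them passed the filter through a single group.

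The TCA cycle oxidises acetyl-CoA in the mitochondrial matrix: citrate synthase joins it to oxaloacetate, a series of dehydrogenases releases carbon dioxide and reduced cofactors, and oxaloacetate is made again. Glutamine and glutamate feed the cycle through 2-oxoglutarate, while NADP-linked malic enzymes and cytosolic isocitrate dehydrogenase draw on cycle intermediates to make NADPH. The malate-aspartate shuttle uses paired cytosolic and mitochondrial forms of malate dehydrogenase and aspartate aminotransferase to carry reducing equivalents into mitochondria.

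The cells were MRC5, a line of human fetal lung fibroblasts, grown in glutamine-supplemented medium under atmospheric oxygen. There were 4 groups of 3 libraries each: untreated proliferating cells (Prol), cells senescent after X-rays at a dose of 20 Gy (Sen(IR)), and senescent cells given either 100 μM UK5099, which blocks the mitochondrial pyruvate carrier, or CTPI2, which blocks the mitochondrial citrate carrier (Sen(IR)+UK5099 and Sen(IR)+CTPI2). Per the methods, irradiated cells were collected 10 to 12 days after exposure and the inhibitors were added 1 day after it. For CTPI2 both 15 and 30 μM are listed, and which of them was sequenced is not stated in the sources used here. No vehicle is named for the groups without an inhibitor, and all groups come from 1 cell line. The labels give the libraries of a group only a replicate number, and the legends of the study call its RNA-seq replicates independent experiments or conditions without saying what was separate, so p-values measure the spread between these libraries, which may be technical.

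Library totals ran from 20597736 to 28245693 counts. The 8 fibroblast markers checked (COL1A1, COL1A2, COL3A1, PDGFRB, THY1, VIM, LUM and DCN) summed to 19827 to 20392 CPM in Sen(IR), to 20705 to 24493 in Prol, to 17405 to 19174 with CTPI2 and to 10534 to 10977 with UK5099. Mean levels of COL1A1, COL1A2 and COL3A1 were 4710, 7315 and 2750 CPM in Sen(IR) and 1600, 3516 and 819 CPM with UK5099. Those of DCN, LUM and PDGFRB were 1362, 356 and 156 CPM in Sen(IR) and 1361, 370 and 162 CPM with UK5099. Of 13 epithelial, endothelial and leukocyte markers, 10 were under 1 CPM in every library, TYROBP was at 0 in every library, and the highest value of any was 5.66 CPM. The 5 proliferation markers (MKI67, TOP2A, CCNA2, CDK1 and CCNB1) summed to 1433 to 1609 CPM in Prol, against 90.4 to 94.4 CPM in Sen(IR), 86.2 to 96.1 CPM with CTPI2 and 26.6 to 29.9 CPM with UK5099. The share of counts on mitochondrially encoded genes was highest with UK5099, at 3.81 to 4.23%, where Sen(IR) had 2.78 to 3.21%, CTPI2 2.39 to 3.28% and Prol 2.36 to 2.68%. The part these differences had in the members' values was not tested.

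Members were read at very different levels. They were set side by side as CPM per kilobase of exon, which counts all annotated exon bases of a gene. Those bases need not match the transcripts present, so the order of genes depends in part on that length. SDHC, the membrane anchor subunit C of succinate dehydrogenase, stood at 72.8 ± 1.95 (SD, n = 3) in Sen(IR). Below it were MDH2, the mitochondrial malate dehydrogenase, at 42.3 ± 0.177, and ME1, the cytosolic malic enzyme, at 38.9 ± 2.00. GOT2, the mitochondrial aspartate aminotransferase, followed at 33.9 ± 0.832, and SDHD, IDH1 and MDH1 lay between 29.8 and 31.3 per kilobase. SDHD, IDH1 and MDH1 did not differ from one another beyond their spread. At the other end were D2HGDH, which oxidises D-2-hydroxyglutarate, at 1.44 ± 0.220, ME3, a mitochondrial malic enzyme, at 2.18 ± 0.0272, ME2, its NAD-linked relative, at 3.01 ± 0.0840, and IDH3A at 3.69 ± 0.250. Among the subunits of single complexes the levels per kilobase were far apart. SDHC and SDHD (31.3 ± 2.18) stood above the iron-sulfur subunit SDHB (14.9 ± 0.744) and the flavoprotein SDHA (9.56 ± 0.123). In CPM, however, SDHA (83.2 ± 1.07) was above SDHB (36.4 ± 1.82) and within the spread of SDHD (87.5 ± 6.09). SDHA has 8703 annotated exon bases where SDHB has 2445. Per kilobase the catalytic IDH3A was below its regulatory partners IDH3B (13.2 ± 1.13) and IDH3G (13.4 ± 0.612), which did not differ from each other beyond their spread. In CPM the subunits were closer, at 25.2 for IDH3A, 33.9 for IDH3B and 36.2 for IDH3G. Some levels may hold reads of overlapping genes, or lack reads that fell on both genes and were left unassigned. Reads were counted by strand only if the libraries kept it, and whether they did is not stated. Of the exon bases of IDH3A, 38.78% lie under genes on the opposite strand, as do 9.89% of those of IDH3G. For D2HGDH it is 18.57%, under neighbours that had hardly any counts. DLD has 5.88% of its exon bases under LAMB1, whose 266451 counts over the 12 libraries exceed the 35653 of DLD. Smaller stretches of GLUD1 and MDH1 lie under SHLD2 and WDPCP, and SDHA has 3 pseudogenes whose own counts amount to 11.06% of its total.

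Summed over the members, the level was lowest in Sen(IR), at 2238 to 2268 CPM, and reached 2302 to 2331 CPM with CTPI2, 2331 to 2401 CPM with UK5099 and 2626 to 2793 CPM in Prol. Every Prol library stood above and every Sen(IR) library below the libraries with an inhibitor. The highest CTPI2 library, at 2330.5 CPM, was just under the lowest UK5099 library, at 2330.7 CPM. The picture of each member by library shows that this sum hides members that moved in different directions.

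**Figure D1:**
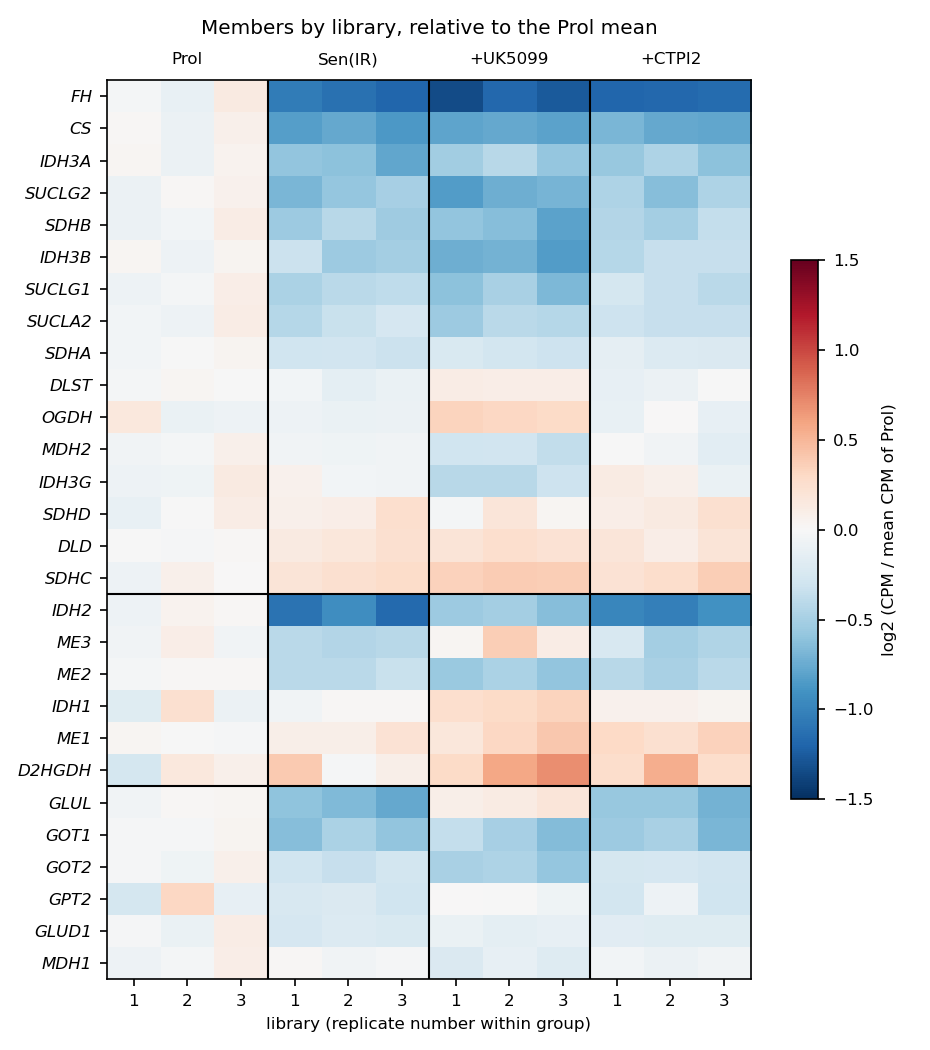
Each row is 1 of the 28 tested members and each column 1 library, with colour giving the log2 of its CPM over the mean CPM of the 3 Prol libraries (blue lower, red higher, scale from −1.5 to 1.5). Horizontal lines separate cycle genes, NADP-linked and related genes, and glutamine, transaminase and shuttle genes. FH, CS and IDH2 are blue in all 9 irradiated libraries, whereas GLUL is blue in Sen(IR) and with CTPI2 but not with UK5099.

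The first comparison asked how senescent cells differ from proliferating ones. Calls were made with edgeR's quasi-likelihood test, at p-values adjusted by Benjamini-Hochberg over all 16251 genes, and needed an adjusted p under 0.05 together with an absolute log2 fold change over 0.5. Of the 28 members 7 fell in Sen(IR) and 0 rose. That is 25.0% lower, where 22.4% of all genes tested were called lower, 24.8% higher and 47.2% in either direction, so the share of members that fell was near that of all genes. For the higher direction, DESeq2's Wald test also called 0, and edgeR gave 4 members an unadjusted p under 0.05 with a positive change, of 21 with such a p in either direction (70.7% of all genes). The median log2 fold change of the 28 members was −0.31, beside 0.01 for all genes tested. In RNA from whole cultures, fewer cells of one kind and less RNA per cell cannot be told apart.

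The cycle members that fell were fumarase, citrate synthase, a catalytic subunit of the NAD-linked isocitrate dehydrogenase and a subunit of succinyl-CoA ligase. FH, the fumarase that hydrates fumarate to malate (ENSG00000091483, GRCh38 chromosome 1, 241497511 to 241519799), was at 108, 102 and 121 CPM in the 3 Prol libraries and at 53.1, 50.7 and 48.3 CPM in Sen(IR). Every Sen(IR) library was below every Prol library, with a log2 fold change of −1.12 (SE 0.0652, edgeR adjusted p 7.34e-13). CS, citrate synthase (ENSG00000062485, chromosome 12, 56271699 to 56300391), was at 264, 246 and 274 CPM in Prol and 148, 154 and 144 CPM in Sen(IR), a log2 fold change of −0.82 (SE 0.0516, edgeR adjusted p 3.30e-12). Its groups did not overlap either. IDH3A (ENSG00000166411, chromosome 15, 78131498 to 78171945), which carries the active site of the NAD-linked enzyme, was at 40.6, 37.5 and 41.0 CPM in Prol and 26.4, 26.0 and 23.2 CPM in Sen(IR), a log2 fold change of −0.66 (SE 0.0732, edgeR adjusted p 4.59e-08). The genes overlapping IDH3A on the other strand, ACSBG1 and CIB2, had few counts beside its own 8608 over the 12 libraries. SUCLG2, the GDP-forming subunit of succinyl-CoA ligase (ENSG00000172340, chromosome 3, 67360460 to 67654612), was at 102, 109.7 and 113 CPM in Prol and 67.1, 72.3 and 76.4 CPM in Sen(IR), a log2 fold change of −0.59 (SE 0.0635, edgeR adjusted p 2.68e-08). Under upper-quartile scaling SUCLG2 was at −0.47 and was no longer called.

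Among NADP-linked members and those for glutamine and the shuttle, 3 fell. IDH2, the mitochondrial NADP-linked isocitrate dehydrogenase (ENSG00000182054, chromosome 15, 90083045 to 90102477), was at 59.4, 65.0 and 63.4 CPM in Prol and 29.0, 32.8 and 27.8 CPM in Sen(IR), a log2 fold change of −1.07 (SE 0.0691, edgeR adjusted p 4.92e-12). The 2 groups were far apart, and IDH1, the cytosolic and peroxisomal enzyme for the same reaction, did not follow: it stood at 127, 171 and 136 CPM in Prol and 139, 146 and 146 CPM in Sen(IR), where the groups overlapped (−0.01, edgeR adjusted p 0.932). Prol replicate 2 was the highest of these IDH1 libraries, and without it the log2 fold change of IDH1 was 0.13 (edgeR adjusted p 0.0345), under the fold-change limit. GLUL, the glutamine synthetase that joins ammonia to glutamate (ENSG00000135821, chromosome 1, 182378098 to 182392206), was at 141, 148 and 149.6 CPM in Prol and 96.2, 92.7 and 85.9 CPM in Sen(IR). The groups did not overlap, and the log2 fold change was −0.67 (SE 0.0567, edgeR adjusted p 4.51e-10). GOT1, the cytosolic aspartate aminotransferase (ENSG00000120053, chromosome 10, 99396870 to 99430624), fell from 46.2, 46.2 and 48.1 CPM to 30.05, 33.7 and 31.0 CPM, a log2 fold change of −0.57 (SE 0.0754, edgeR adjusted p 6.21e-07). GOT1 was at −0.45 under upper-quartile scaling and was no longer called.

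Many more members passed the limit on the adjusted p alone. Without the fold-change limit, 17 were lower (34.5% of all genes) and 3 higher (34.1% of all genes) in Sen(IR), together 71.4% of the 28, where 68.7% of all genes tested passed. The lower members were thus a larger share than among all genes, at 60.7% of the 28. By role, 9 of 16 tested cycle members were lower and 2 higher, 3 of 6 NADP-linked and related members were lower and 1 higher, and 5 of 6 members for glutamine, transaminases and the shuttle were lower. The libraries of Prol and Sen(IR) did not overlap for 20 members, beside 70.9% of all genes tested. SDHB was closest to the fold-change limit at −0.499, with 48.5, 50.1 and 55.6 CPM in Prol and 35.2, 38.5 and 35.5 CPM in Sen(IR). It passed the limit when any one of Prol replicate 1, Prol replicate 2 or Sen(IR) replicate 2 was left out (−0.54 to −0.52). The other lower members at adjusted p alone were IDH3B (−0.45, or −0.53 and called without Sen(IR) replicate 1), SUCLG1 (−0.42), ME3 (−0.41), ME2 (−0.38), SUCLA2 (−0.34), GOT2 (−0.31), SDHA (−0.30), GPT2 (−0.25) and GLUD1 (−0.23). GPT2, the mitochondrial alanine aminotransferase, was at 26.0, 38.7 and 28.6 CPM in Prol and 26.3, 26.8 and 25.3 CPM in Sen(IR), so its groups overlapped and Prol replicate 2 stood above the rest. Without that library its log2 fold change was −0.07 (edgeR adjusted p 0.484), and its p was also over the limit with DESeq2, with RLE scaling and without any one of the Sen(IR) libraries (adjusted p 0.0604 to 0.104).

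The 3 members that were higher at adjusted p alone were SDHC, DLD and ME1. SDHC was at 111, 124 and 118 CPM in Prol and 135, 138 and 142 CPM in Sen(IR), a log2 fold change of 0.23 (edgeR adjusted p 0.000536), with no overlap. DLD, the dihydrolipoamide dehydrogenase shared by several 2-oxoacid dehydrogenase complexes, was at 113, 112 and 115 CPM in Prol and 125, 128 and 134 CPM in Sen(IR) (0.18, edgeR adjusted p 0.00235), with LAMB1 on the other strand as given above. ME1 was at 121, 118 and 117 CPM in Prol and 126, 126 and 138 CPM in Sen(IR) (0.13, edgeR adjusted p 0.0482), and in 5 of 6 fits that left out a library, every one but that without Sen(IR) replicate 1, its adjusted p was 0.0538 to 0.230. The 8 members that did not pass were DLST, OGDH, MDH2, MDH1, IDH1, IDH3G, SDHD and D2HGDH, with log2 fold changes from −0.09 to 0.17. Upper-quartile scaling raised the median log2 fold change of all genes by 0.12 in this comparison, and under it the medians of the members and of all genes were −0.18 and 0.13. The direction of the 20 members above was the same under RLE and upper-quartile scaling and with DESeq2, though under upper-quartile scaling GPT2 and GLUD1 did not pass and SDHD did. RLE scaling also moved the split at adjusted p alone, to 4 higher and 16 lower in place of 3 and 17.

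**Figure D2:**
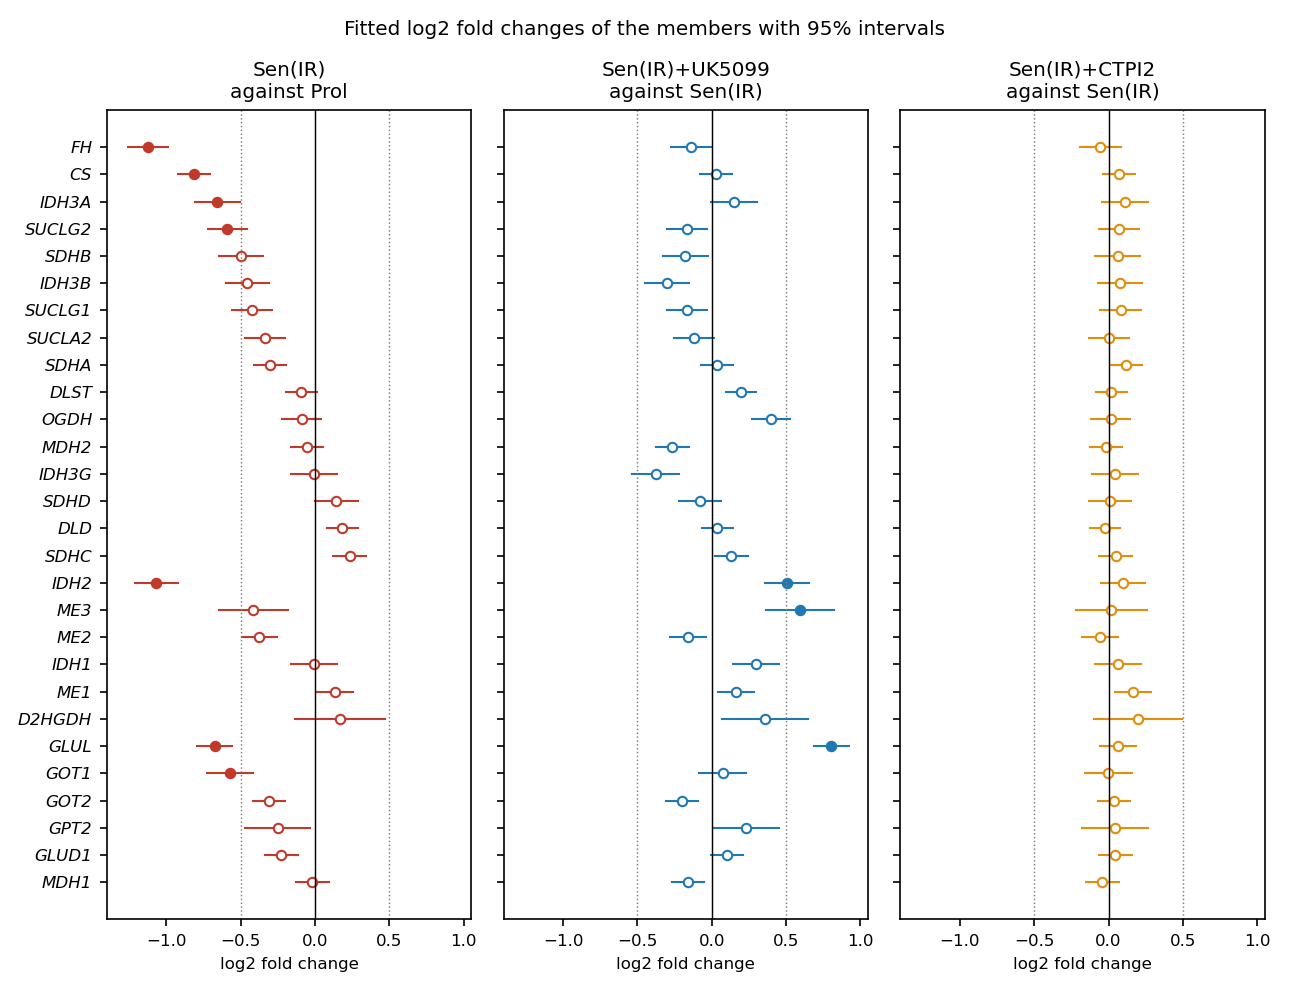
Points give the fitted log2 fold change of each of the 28 members with its 95% interval in 3 comparisons, filled where the member was called, and dotted lines mark the limit of 0.5 in either direction. In Sen(IR) against Prol the 7 filled points are all negative, in Sen(IR)+UK5099 against Sen(IR) the 3 filled points are all positive, and in Sen(IR)+CTPI2 against Sen(IR) no point is filled and the intervals span −0.22 to 0.49.

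The promoters of FH and CS are shown as examples. Both genes fell in Sen(IR), and their RefSeq starts lie within 100 bases of the 5′ ends of their spans in GENCODE. SUCLG2 and GOT1 meet the same conditions and are not shown. Each sequence is the stretch of the RefSeq promoter window (GRCh38.p14, starting 250 bases before the RefSeq start) that lies outside annotated exons, read 5′ to 3′ on the strand of the gene, with capitals marking a GC box (GGGCGG on either strand) or a CCAAT box (CCAAT on either strand).
FH, chr1:241519800-241520005, minus strand: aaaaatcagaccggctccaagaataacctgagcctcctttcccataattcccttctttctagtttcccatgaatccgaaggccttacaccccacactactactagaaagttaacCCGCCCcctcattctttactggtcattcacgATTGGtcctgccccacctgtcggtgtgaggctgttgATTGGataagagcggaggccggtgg
CS, chr12:56300392-56300580, minus strand: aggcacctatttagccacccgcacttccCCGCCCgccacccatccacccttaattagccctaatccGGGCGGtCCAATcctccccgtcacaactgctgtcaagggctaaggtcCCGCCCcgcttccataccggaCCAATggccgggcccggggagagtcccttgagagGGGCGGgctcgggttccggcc
FH held 1 GC box and 2 CCAAT boxes, and CS held 4 and 2. Over the full window of 250 bases, 16 of the 26 members with a RefSeq promoter held a GC box and 10 a CCAAT box, beside 42.3% and 33.0% of 27305 promoters. In that window GOT1 held both motifs, whereas SUCLG2 held a GC box but no CCAAT box. For 8 of the 26, IDH2 among them, the RefSeq start lay more than 100 bases from the 5′ end of the GENCODE span, so that those windows can lie inside the gene. The 8-letter cyclic AMP element TGACGTCA was in 0 of 26 (1.77% of all promoters), and the ETS motif CCGGAAG was in 7 of 26, among them SDHB, SDHD, IDH3B and IDH3G (8.82%). The member windows were richer in G and C, with a median of 67.0% against 58.0% for all promoters.

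The second comparison asked how senescent cells given UK5099 differ from senescent cells without an inhibitor. GLUL, ME3 and IDH2 rose and 0 members fell, which is 10.7% of the 28 called higher, where 8.76% of all genes tested were called higher and 12.1% lower. For the lower direction, DESeq2 also called 0 members, whereas 8 were lower at an edgeR adjusted p under 0.05 alone (28.6%, beside 23.5% of all genes), and 19 had an unadjusted p under 0.05 in either direction (51.6% of all genes). The median log2 fold change of the members was 0.04, beside 0.01 for all genes. The lower fibroblast and proliferation marker sums and the higher mitochondrial share given above are of these same UK5099 libraries. In the fibroblast sum, DCN, LUM and PDGFRB did not fall beyond their spread. The part of these differences in the members' values was not tested.

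GLUL showed the largest change of the 28. It was at 155, 159 and 166 CPM with UK5099 against 96.2, 92.7 and 85.9 CPM in Sen(IR), a log2 fold change of 0.81 (SE 0.0566, 95% interval 0.69 to 0.92, edgeR adjusted p 9.00e-11). Each UK5099 library was also above each Prol library, although against Prol the log2 fold change was 0.13, under the limit, and its edgeR adjusted p of 0.0388 was over 0.05, at up to 0.142, without any one of Prol replicate 1, Sen(IR)+UK5099 replicate 2 or Sen(IR)+UK5099 replicate 3. Against CTPI2 it was 0.74 (SE 0.0563, edgeR adjusted p 3.87e-10), with CTPI2 libraries at 99.0, 98.6 and 89.4 CPM.

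ME3, an NADP-linked malic enzyme of mitochondria (ENSG00000151376, chromosome 11, 86441108 to 86672636), was at 11.3, 14.4 and 12.003 CPM with UK5099 and 8.45, 8.24 and 8.38 CPM in Sen(IR). The groups did not overlap, with a log2 fold change of 0.59 (SE 0.110, edgeR adjusted p 0.000134), but without Sen(IR)+UK5099 replicate 2, the highest library, it was 0.48 and under the fold-change limit. Against Prol, with 10.8, 11.9 and 10.7 CPM, the UK5099 libraries overlapped (0.18, edgeR adjusted p 0.135). The ME3 promoter outside annotated exons is shown as that of the called member with an E-box, CACGTG, which is in 6.49% of all promoters and in 2 of the 26 members.
ME3, chr11:86672637-86672866, minus strand: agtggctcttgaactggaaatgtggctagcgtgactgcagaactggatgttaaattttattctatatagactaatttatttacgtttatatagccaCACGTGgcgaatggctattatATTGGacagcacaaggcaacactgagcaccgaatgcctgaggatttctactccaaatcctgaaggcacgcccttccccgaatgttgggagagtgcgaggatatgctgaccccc
The capitals mark the E-box and 1 CCAAT box.

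IDH2 was at 42.9, 44.1 and 40.2 CPM with UK5099, between its Sen(IR) libraries at 27.8 to 32.8 CPM and its Prol libraries at 59.4 to 65.0 CPM, with no overlap on either side. Its log2 fold change was 0.51 relative to Sen(IR) with an SE of 0.0700 (edgeR adjusted p 3.51e-06) and −0.56 relative to Prol with an SE of 0.0665 (edgeR adjusted p 9.85e-08). The value against Sen(IR) lay at the fold-change limit: it was 0.46 to 0.58 over the fits that left out a library and was no longer called without Sen(IR) replicate 1, Sen(IR) replicate 3, Sen(IR)+UK5099 replicate 1 or Sen(IR)+UK5099 replicate 2, nor with DESeq2, RLE scaling or a fit of the 2 groups alone.

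OGDH, IDH3G and D2HGDH were next in size and stayed under the fold-change limit. OGDH, the E1 subunit that decarboxylates 2-oxoglutarate (ENSG00000105953, chromosome 7, 44606572 to 44709066), was at 105, 104 and 102 CPM with UK5099 and 79.1, 77.9 and 78.6 CPM in Sen(IR), a log2 fold change of 0.40 (SE 0.0624, edgeR adjusted p 1.74e-05). The libraries were close within each group, and those with UK5099 were also above the 3 of Prol at 93.3, 78.3 and 79.2 CPM. IDH3G was at 27.2, 27.1 and 29.2 CPM with UK5099 and 38.05, 35.4 and 35.0 CPM in Sen(IR), a log2 fold change of −0.38 (SE 0.0760, edgeR adjusted p 0.000300). Its overlapping neighbour SSR4 had 27716 counts over the 12 libraries against 9763 for IDH3G. D2HGDH was at 8.23, 10.1 and 10.9 CPM with UK5099 and 8.89, 6.68 and 7.202 CPM in Sen(IR), where the groups overlapped (0.36, SE 0.140, edgeR adjusted p 0.0406). 

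Without the fold-change limit 9 members were higher (32.1%, beside 21.9% of all genes) and 8 lower with UK5099, together 60.7% of the 28 beside 45.4% of all genes tested, and 19 had no overlap between the groups, beside 56.6% of all genes. The higher ones included DLST, the E2 subunit that works next to OGDH (0.20), IDH1 (0.30), ME1 (0.16) and SDHC (0.13). The lower ones were IDH3G, IDH3B (−0.30), MDH2 (−0.27), GOT2 (−0.20), SUCLG1 (−0.17), SUCLG2 (−0.17), ME2 (−0.16) and MDH1 (−0.16). By role, 3 cycle members were higher and 5 lower, 5 NADP-linked and related members were higher and 1 lower, and 1 member for glutamine, transaminases and the shuttle was higher and 2 lower. Of the 17, 10 stayed under the adjusted p limit in all 6 fits that left out a library, whereas D2HGDH, MDH1, ME1, ME2, SDHC, SUCLG1 and SUCLG2 did not, with adjusted p up to 0.0781 for MDH1 and 0.197 for SUCLG2. SDHC stayed under it in 0 of the 6 fits, with an edgeR adjusted p of 0.0554 to 0.159. The other 11 members did not pass: GPT2 was at 0.23, IDH3A at 0.15, GLUD1 at 0.10, GOT1 at 0.07, DLD at 0.04, SDHA at 0.03, SDHD at −0.08, SUCLA2 at −0.12 and SDHB at −0.18, and CS and FH had log2 fold changes of 0.03 (95% interval −0.08 to 0.13) and −0.14 (95% interval −0.28 to 0.00).

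**Figure D3:**
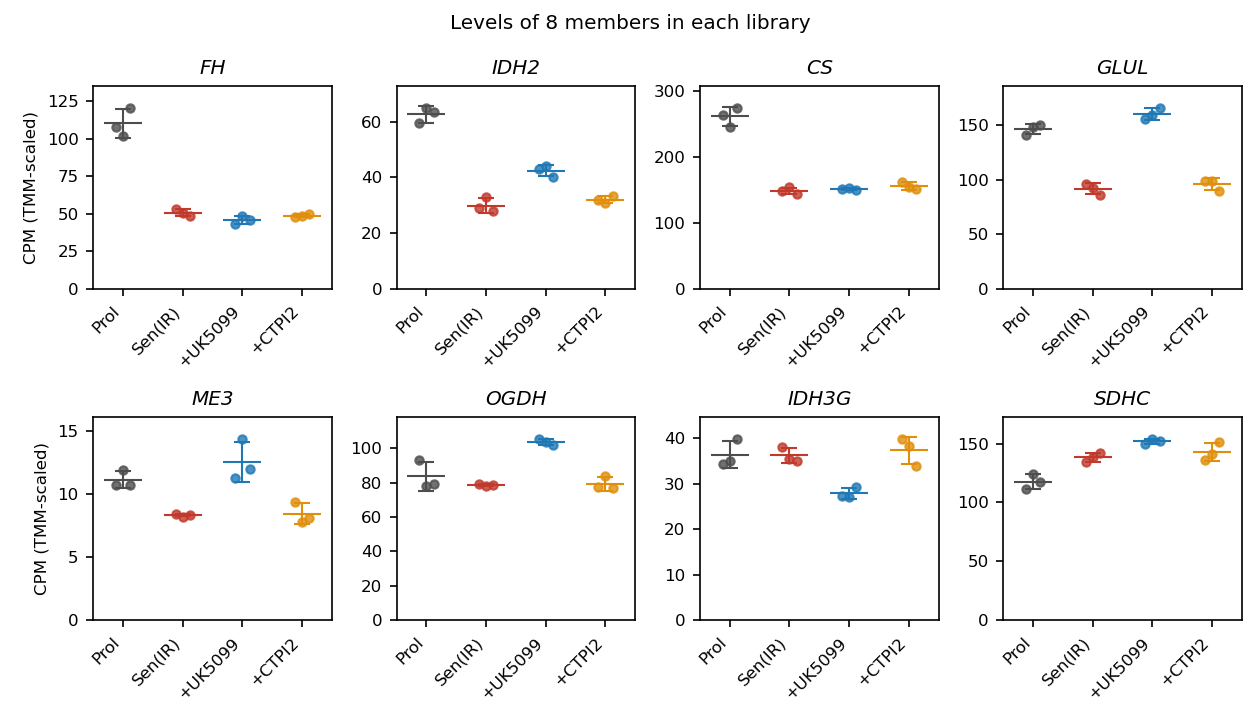
Points are the CPM of 8 members in each of the 12 libraries, and bars give the mean ± SD of the 3 libraries of a group (y axes in CPM from 0, 1 panel per gene). FH and CS stay low in all 3 irradiated groups, IDH2 with UK5099 lies between Sen(IR) and Prol, GLUL with UK5099 lies above both, and IDH3G is lower with UK5099 than in the other groups.

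Set against proliferating cells directly, the UK5099 group had 10 members called lower and 1 higher (39.3% of the 28, where 53.1% of all genes tested were called in either direction, 26.2% lower and 26.9% higher). At adjusted p alone 17 were lower (37% of all genes) and 7 higher (36.4% of all genes), together 85.7% of the 28 beside 73.4% of all genes. The groups did not overlap for 24 members (74.5% of all genes), and 25 had an unadjusted p under 0.05 (74.9% of all genes). Upper-quartile scaling changed this to 5 lower and 2 higher. With UK5099 FH stood at 43.4, 48.6 and 46.2 CPM (−1.26, SE 0.0650, edgeR adjusted p 6.44e-14) and CS at 151, 153 and 149.8 CPM (−0.79, SE 0.0514, edgeR adjusted p 4.14e-12). IDH3B was at 28.1, 28.5 and 26.0 CPM against 47.5, 44.1 and 47.9 CPM in Prol (−0.76, SE 0.0699, edgeR adjusted p 1.78e-09), and SUCLG2 at 60.6, 65.1 and 66.7 CPM (−0.76, SE 0.0634, edgeR adjusted p 3.57e-10). These 4 had no overlap with Prol. SDHB was at 34.1, 33.0 and 29.5 CPM (−0.68, SE 0.0715, edgeR adjusted p 1.62e-08). SUCLG1, the subunit common to both succinyl-CoA ligases, was at 45.7, 49.98 and 43.6 CPM against 66.4, 68.2 and 74.8 CPM in Prol (−0.59, SE 0.0647, edgeR adjusted p 3.10e-08). The others called lower were IDH2, ME2, GOT2 and IDH3A. ME2 was at 42.4, 44.7 and 41.2 CPM with UK5099 against 60.6, 62.8 and 62.8 CPM in Prol (−0.54), GOT2 at 112, 114 and 105 CPM against 155, 151 and 166 CPM (−0.51), and IDH3A at 27.5, 29.6 and 26.5 CPM against 40.6, 37.5 and 41.0 CPM (−0.51). None of these groups overlapped. The call of IDH3A was lost with DESeq2, with RLE scaling and without Prol replicate 1, Prol replicate 3, Sen(IR)+UK5099 replicate 1 or Sen(IR)+UK5099 replicate 3, and that of GOT2 without Prol replicate 3 or Sen(IR)+UK5099 replicate 3. D2HGDH was the member called higher (0.53, SE 0.139, edgeR adjusted p 0.00180, with 5.62, 7.55 and 7.09 CPM in Prol), and its call was lost without Prol replicate 1 or Sen(IR)+UK5099 replicate 3. The 17 members that were not called lay between −0.50 (GOT1) and 0.37 (SDHC).

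The third comparison asked the same of the citrate carrier inhibitor. With CTPI2, 0 of the 28 members were called with edgeR and 0 with DESeq2, where 0.166% of all genes tested were called and 0.486% passed the adjusted p alone. Each tool gave 2 members an unadjusted p under 0.05 (7.27% of all genes with edgeR). For 5 members, ME1, SDHA, IDH1, GLUD1 and ME2, no library of one group lay within the range of the other, beside 15.1% of all genes. ME1 had the smallest p, with 146, 140.2 and 150.1 CPM against 126, 126 and 138 CPM in Sen(IR), a log2 fold change of 0.16 (SE 0.0581, edgeR adjusted p 0.434). SDHA followed with 93.7, 88.9 and 88.2 CPM against 83.7, 84.0 and 82.0 CPM (0.12, SE 0.0512, edgeR adjusted p 0.624), and its groups did not overlap. IDH3A came next, with 26.8, 28.8 and 26.0 CPM (0.11, SE 0.0751, edgeR adjusted p 0.839). The largest change of any member was that of D2HGDH at 0.20 (8.11, 9.90 and 8.13 CPM, SE 0.143, edgeR adjusted p 0.856), and IDH2 and SUCLG1 (58.1, 54.8 and 52.6 CPM) were at 0.10 and 0.08. The 95% intervals of the 28 members lay between −0.22 and 0.49, so a change of 0.5 in either direction was outside each of them. For GLUL, the member that rose most with UK5099, the interval with CTPI2 was −0.06 to 0.18.

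Comparing the inhibitors with each other, at doses that differ, GLUL and ME3 (0.57, SE 0.109, edgeR adjusted p 0.000172) were higher with UK5099 and 0 members were lower. That is 7.14% of the 28, where 8.2% of all genes tested were called higher, 11.7% lower and 19.9% in either direction. DESeq2 also called 0 members lower. At an edgeR adjusted p under 0.05 alone 7 were lower (23.4% of all genes) and 6 higher (21.1%), together 46.4% of the 28 beside 44.5% of all genes, 14 had an unadjusted p under 0.05 (51.2% of all genes), and 19 had no overlap (53.6% of all genes). The call of ME3 was lost without Sen(IR)+UK5099 replicate 2 (0.46). IDH3G, with 39.6, 38.3 and 33.9 CPM with CTPI2, was at −0.42 (SE 0.0754, edgeR adjusted p 9.10e-05). IDH2, with 31.8, 30.8 and 33.3 CPM with CTPI2, was at 0.41 (SE 0.0692, edgeR adjusted p 4.86e-05). OGDH, with 77.3, 84.1 and 76.6 CPM with CTPI2, was at 0.38 (SE 0.0621, edgeR adjusted p 2.88e-05), and IDH3B, with 34.5, 36.6 and 36.5 CPM, at −0.38 (SE 0.0710, edgeR adjusted p 0.000144). None of these 4 overlapped between the inhibitors. ME1 was at −7.99e-05 (95% interval −0.12 to 0.12).

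Ratios of partner genes within a library do not depend on how libraries are scaled. They are given per kilobase of exon, as geometric means of the 3 libraries of a group. Their size thus depends on the annotated exon lengths, whereas their change between groups does not. Each was compared by a two-sided exact permutation test, which with 3 against 3 libraries cannot go below p = 0.1. Over the 21 comparisons made no adjusted p was under 0.162, so these are differences in level with no test that could pass. The IDH1 to IDH2 ratio was 1.36 in Prol and 2.86 in Sen(IR), a difference of 1.07 on the log2 scale with no overlap (exact permutation p 0.1), and 2.47 with UK5099 (−0.21 against Sen(IR), exact permutation p 0.2), where the libraries overlapped. Cytosolic over mitochondrial malic enzyme, ME1 to ME2, was 9.09 in Prol, 12.9 in Sen(IR), 15.1 with CTPI2 and 16.2 with UK5099. In this ratio neither inhibitor group overlapped with Sen(IR). Its size rests largely on exon lengths of 3338 bases for ME1 and 15897 for ME2. In CPM, ME1 was at 130 and ME2 at 47.8 in Sen(IR). GOT1 to GOT2 was 0.462 in Prol, 0.384 in Sen(IR) and 0.464 with UK5099, with no overlap of Sen(IR) with either. MDH1 to MDH2, the other shuttle pair, was 0.686, 0.704 and 0.758 in the same groups. SUCLA2 to SUCLG2, the ADP-forming over the GDP-forming subunit, was 0.227 in Prol, 0.271 in Sen(IR) and 0.279 with UK5099. Subunit pairs of single complexes, chosen after their values were seen, also parted. SDHC to SDHB was 2.94 in Prol, 4.89 in Sen(IR), 6.07 with UK5099 and 4.84 with CTPI2, and IDH3A to IDH3B was 0.321 in Prol, 0.279 in Sen(IR), 0.381 with UK5099 and 0.285 with CTPI2. 

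**Figure D4:**
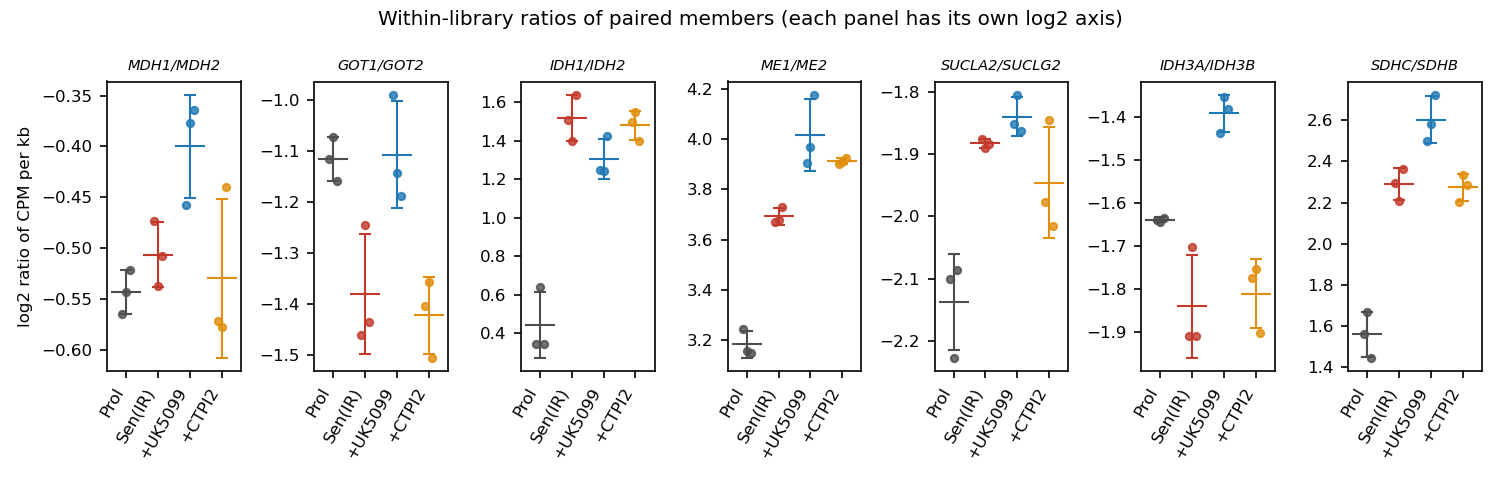
Each panel shows 1 pair, with points for the log2 ratio of CPM per kilobase in each of the 12 libraries and bars for the mean ± SD of a group (each panel has its own log2 axis). IDH1/IDH2, ME1/ME2, SUCLA2/SUCLG2 and SDHC/SDHB separate Prol from all irradiated libraries. ME1/ME2 is also higher with either inhibitor than in Sen(IR), and GOT1/GOT2 with UK5099 has a mean close to that of Prol.

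Of 36 other genes listed for the same pathways, 33 were tested and the other 3 were too low. In Sen(IR) against Prol 7 rose (24.8% of all genes tested) and 11 fell (22.4% of all genes). Together these were 54.5% of the 33, beside 47.2% of all genes. Those called with an absolute log2 fold change over 1 were as follows. ASS1, argininosuccinate synthase (2.77), SLC1A1, a glutamate and aspartate transporter (2.40), and SLC25A18, a mitochondrial glutamate carrier (1.14), rose, while SLC25A10, the dicarboxylate carrier (−1.296), PCK2, mitochondrial phosphoenolpyruvate carboxykinase (−1.19), SLC25A13, an aspartate-glutamate carrier of the malate-aspartate shuttle (−1.17), SLC1A5, a glutamine transporter (−1.08), and PPAT, which uses glutamine to start purine synthesis (−1.05), fell. SLC25A10 and SLC25A18 were at or under 2.45 CPM in every library.

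With UK5099, 4 of the 33 rose, among them PC and DHTKD1, and 5 fell (PSAT1, ASNS, PCK2, ACO1 and ALDH18A1). Together these were 27.3% of the 33, where 20.8% of all genes tested were called, 8.76% higher and 12.1% lower. PC, pyruvate carboxylase, which makes oxaloacetate from pyruvate in the matrix, was at 14.4, 15.6 and 14.5 CPM against 9.11, 8.52 and 8.72 CPM (0.75, SE 0.103, edgeR adjusted p 3.04e-06). PSAT1, the phosphoserine aminotransferase that forms 2-oxoglutarate from glutamate, was the one called past a log2 fold change of 1 in either direction: it was at 40.7, 41.9 and 40.8 CPM against 92.4, 90.6 and 92.7 CPM (−1.16, SE 0.103, edgeR adjusted p 4.42e-09). PC and DHTKD1 were named after their values were seen. With CTPI2, 0 of the 33 were called with edgeR, where 2 had an unadjusted p under 0.05, and 0 with DESeq2, where 1 had. With edgeR 0.166% of all genes tested were called and 7.27% had such a p.

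The transcripts of the inhibited carriers themselves were measured as well. The pyruvate carrier subunits MPC1 and MPC2 were at 0.35 and −0.12 with UK5099 against Sen(IR), and neither was called. In Sen(IR) against Prol MPC2 rose (0.55), MPC1 was at −0.15 and SLC25A1, the citrate carrier, rose (0.63). MPC2 was at 39.0 ± 4.15 CPM in Prol and 57.1 ± 1.24 CPM in Sen(IR). Of its exon bases 21.8% lie under DCAF6 on the opposite strand, which had 32151 counts against 14414 for MPC2. Values under alternative settings are not given for these carriers. With CTPI2, SLC25A1 was at 0.04 against Sen(IR).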

How the data were processed

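RNA was sequenced from 12 MRC5 libraries. Per the methods and the submitters' processing notes, the authors used Trimmomatic 0.36 for trimming, STAR 2.5.2b for alignment to GRCh38 and featureCounts of Subread 1.5.2 for counting uniquely mapped reads in exons, and deposited the raw counts, which are not normalized. Per the methods, reads were counted by strand where the library kit kept it, and whether it did is not given in the sources used here. The tests used edgeR 4.0.16 under R 4.3.3 (TMM after filterByExpr, glmQLFit and glmQLFTest, Benjamini-Hochberg over 16251 genes) in 1 fit of 4 groups without a replicate term, where the study used DESeq2 and an unadjusted p. The SE is the absolute log2 fold change over the square root of F, and levels are CPM of the TMM-scaled library, in which 3 counts equal at most 0.147 CPM. Positions, exon lengths and overlaps came from GENCODE release 44 (56410 of the identifiers matched), and promoters from RefSeq on GRCh38.p14.

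Library pairs within groups had correlations of log2 CPM of 0.991 to 0.992 across genes, which are not independent replicates, and no pair was alike within sampling noise. The members and lists were chosen with earlier results of these data known. All members are accounted for, with library values for those called and for the 6 largest changes in each comparison, and the 3 smallest p with CTPI2, and other pathway genes are named where called and changed by more than 1 on the log2 scale, the rest being given by counts unless marked. Alternatives were no filter, DESeq2 1.42.0, scaling by RLE or by the upper quartile, 2-group fits, a replicate block, an unadjusted p, other fold-change limits and leaving out each library. The tests were tried on simulated data first. Reads, proteins, metabolites and ChIP-seq were not analysed here. Values of some of the other pathway genes are not reported here.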

Additional observations from a re-analysis of the deposited data

How the results depend on the processing

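The fold-change limit moved the counts of called members most. With a limit of 1 the counts were 2 in Sen(IR) against Prol, 0 in UK5099 against Sen(IR), 0 in UK5099 against CTPI2 and 1 in UK5099 against Prol, and with no limit they were 20, 17, 13 and 24. Upper-quartile scaling gave 7 members in UK5099 against Prol in place of 11, as it raised the median log2 fold change of all genes by 0.14 there, and under it GLUD1 turned from −0.12 to 0.0162. Leaving out 1 library gave 7 to 8, 1 to 3, 1 to 2 and 8 to 12 called members in those 4 comparisons, and 0 in CTPI2 against Sen(IR). Without a scaling factor the summed level was 2589 CPM in Prol (2699.9 with TMM), 2227 in Sen(IR) (2251 with TMM) and 2480.0 with UK5099 (2362 with TMM). For the 77 member values with an adjusted p under 0.05 (with CTPI2, the 3 smallest p), 1155 values under an alternative were computed, of which 1047 kept their direction and side of the threshold, 61 passed it newly, 46 no longer passed it and 1, that of GLUD1, changed sign. Over all 140 values of the 28 tested members in 5 comparisons, 22 changed sign under at least 1 alternative, 0 of them called, and each was at most 0.12 in size. Where the cause of a change is not given by the setting itself, the cause was not tested. No strong shared effect of the replicate number was seen. Same-numbered libraries of different groups had correlations of −0.05 to 0.04 in their deviations from the group means. These are over all genes tested, with the noise of low counts, and cannot show that the libraries were unpaired. A replicate block left 7, 3, 0 and 2 calls as they were and gave 12 in UK5099 against Prol, adding GOT1. Depth limited OGDHL, which had at most 0.331 CPM where 3 counts equal up to 0.147 CPM, and no fold was given for it.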

Other observations

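Prol replicate 2 stood apart for several amino acid genes. Its ASNS level, for the asparagine synthetase that takes nitrogen from glutamine, was 119 CPM beside 71.4 and 80.4 in the other Prol libraries, and its PSAT1 level was 200.3 CPM beside 134 and 144. PCK2 was at 27.2 CPM there beside 19.6 and 18.4, and SLC1A5 at 329 CPM beside 256 and 282. Of the members, IDH1 and GPT2 were also higher there than in the other Prol libraries, as given above. So were some others, IDH2, ME3, SDHC and D2HGDH among them. These genes were named after their values were seen, and the cause was not tested.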
